A study of Schmidtea mediterranea with 24 samples.

Results

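The comparison described here is egr-2 RNAi against control RNAi in regenerating tail fragments of the planarian flatworm Schmidtea mediterranea, 2 days after amputation. Its members were chosen by their sample labels alone, and they are 8 of the 24 libraries of the series, with 4 of egr-2 RNAi and 4 of control RNAi. The tested libraries came from asexual animals of clonal line CIW4 that were fed egr-2 double-stranded RNA, and the control libraries from animals of the same line fed egfp double-stranded RNA. Both groups received 6 feedings with 2 µg of double-stranded RNA, were starved and were then amputated. Each biological replicate pooled tissue from 10 tail fragments, taken as the third nearest the wound, so a replicate is a pool and not a single animal. The remaining libraries of the series are the same pair of RNAi conditions at 0 h and at 4 days, with 4 replicates each.

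Planarians rebuild missing body parts from neoblasts, dividing stem cells that are spread through the body, and new tissue forms at the wound as a blastema while older tissue is remodelled. A tail fragment has to make a new head and brain, and its front end is where that growth takes place. RNA interference by feeding lowers the messenger RNA that matches the double-stranded RNA, and egfp is a jellyfish reporter gene that serves as a target absent from the worm. By its name, egr-2 belongs to the early growth response family, zinc-finger transcription factors whose vertebrate members are induced quickly by injury and growth signals.

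Reads had been counted by the authors per contig, an assembled transcript sequence of the dd_Smed_v6 transcriptome. Contig IDs are not paired with gene names in the tables used, and the contigs are left without names or roles. The egr-2 transcript could therefore not be looked up as a check of the labels, a contig that fell may be the target itself, and no cell type markers could be read. For this reason 2 contigs that rose and 2 that fell are named by ID, and the other contigs are described by their numbers, levels, lengths and time course. In bulk tissue, fewer cells of a type and less RNA per cell cannot be told apart.

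Total counts were 15433992 to 21132548 in the 4 egr-2 RNAi libraries and 17658036 to 23924158 in the 4 control libraries at 2 days. The means did not pass an exact permutation test (two-sided, p of 0.257), for which 0.0286 is the smallest value that 4 against 4 libraries can give. The number of contigs with at least 1 count was 24552 ± 656 in egr-2 RNAi and 25055 ± 238 in control libraries (SD, n = 4 each, exact permutation p of 0.143). The 10 most abundant contigs held 6.76% ± 0.056 of the counts in egr-2 RNAi and 6.83% ± 0.040 in control libraries (SD, n = 4 each, exact permutation p of 0.0857). Replicate pairs of a group differed by more than counting noise, with a chi-square per degree of freedom of 3.50 to 8.08 among egr-2 RNAi and 2.53 to 5.68 among control libraries, so each library was used as 1 replicate.

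Between egr-2 RNAi and control fragments at 2 days, most of the contigs that passed the test differed by less than 1.5-fold. Of 17854 contigs tested, 312 were called at an adjusted p below 0.05, which is 1.75% (edgeR quasi-likelihood test on these 8 libraries, Benjamini-Hochberg adjustment). Among them 152 were higher in egr-2 RNAi fragments, or 0.851% of the contigs tested, and 160 were lower, or 0.896%. The median log2 fold change was 0.36 in the contigs that rose and -0.36 in those that fell, against a median of 0.0026 over all contigs tested. There were 122 higher and 114 lower contigs that changed by less than 1.5-fold. A change of at least 2-fold was called for 5 contigs that rose and 17 that fell. Across all contigs tested, the middle 90% of log2 fold changes lay between -0.37 and 0.30.

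The number of calls depended on single libraries, although 0 of the shared calls changed direction. It was 615 without egr-2 RNAi replicate 3. It was 117, 129 and 178 without egr-2 RNAi replicates 1, 2 and 4, and 173, 180 and 157 without control replicates 2, 3 and 4. A fit that included all 24 libraries of the series, which share 1 estimate of the spread, called 72 contigs, 70 of them among the 312. The common biological coefficient of variation was 0.062 for the 2 day libraries alone, against 0.11 for the 0 h and 0.066 for the 4 day libraries alone. In all 8 fits with 1 library left out, 92 of the 312 contigs were called, 42 higher and 50 lower. The 92 had absolute log2 fold changes of 0.20 to 3.55, with a median of 0.45.

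**Figure D1:**
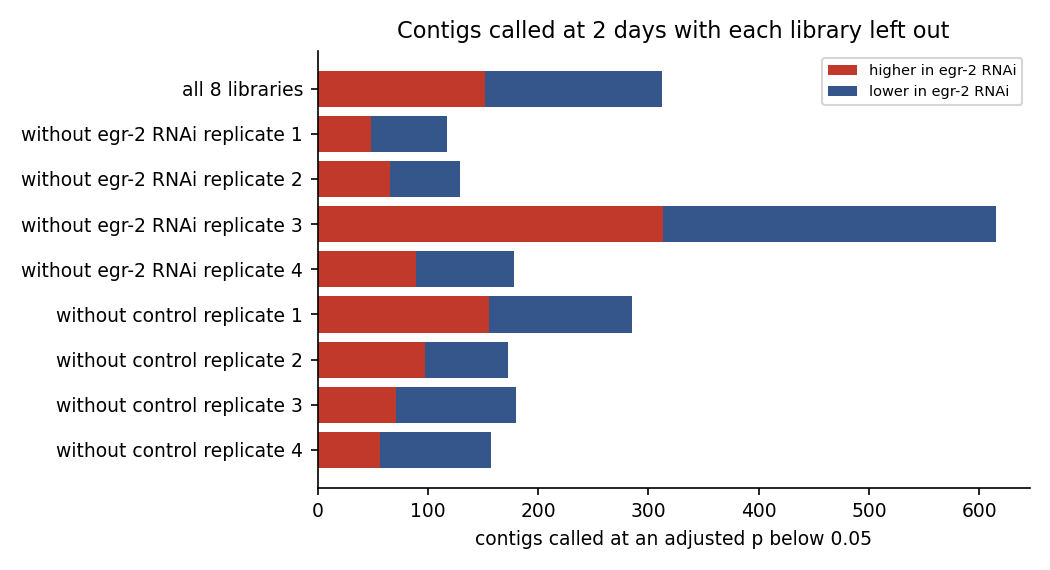
Number of contigs called at an adjusted p below 0.05 at 2 days, with all 8 libraries and with each library left out (bars, split into contigs higher and lower in egr-2 RNAi). The bar without egr-2 RNAi replicate 3 reaches 615, while the others lie between 117 and 312.

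Replicate 3 was the egr-2 RNAi library nearest to the controls. Of the 152 contigs that rose, it had the lowest egr-2 RNAi level in 92, or 60.5%, while replicates 1, 2 and 4 had it in 9, 25 and 26. Of the 160 that fell, it had the highest egr-2 RNAi level in 97, or 60.6%, while replicates 1, 2 and 4 had it in 23, 8 and 32. Control replicates 1 to 4 were the nearest to egr-2 RNAi in 71, 45, 13 and 23 of the contigs that rose. For those that fell the numbers were 42, 20, 45 and 53. Each library was ranked against the whole other group, not against the library of its own number. Whether RNAi acted less in replicate 3 was not tested. The 4 egr-2 RNAi levels lay wholly above the 4 control levels for 123 of the contigs that rose. They lay wholly below them for 133 of those that fell. Over all contigs tested, such a separation was seen upward in 4.11% and downward in 3.39%, but the called contigs were chosen in these same libraries, which makes it likely. The remaining 56 called contigs had overlapping levels.

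Summed over contigs, the changes were modest but separated the conditions, as the choice of called contigs by these same libraries makes likely. The contigs that rose held 34891, 33788, 31285 and 33813 CPM in egr-2 RNAi replicates 1 to 4, against 27545, 28068, 25636 and 26781 CPM in control replicates 1 to 4. Those that fell held 15843, 14898, 17668 and 15846 CPM in egr-2 RNAi replicates 1 to 4, against 19954, 20835, 21372 and 20051 CPM in control replicates 1 to 4. In both sums egr-2 RNAi replicate 3 lay nearest to the controls, and control replicate 3 lay farthest from egr-2 RNAi. Both libraries numbered 3 were thus the lowest of their group for the contigs that rose and the highest for those that fell.

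Called contigs were mostly abundant ones, for which the error of a fold change was smaller. Contigs were divided into 5 classes of about equal number by the average log2 CPM of edgeR, where CPM are read counts scaled to an equal library size. The class limits below are that average turned back into CPM. In the most abundant class, at 58 CPM or more, 82 were called higher and 77 lower, or 4.45% of the class, with a median standard error of 0.046 on the log2 scale. In the least abundant class, below 1.93 CPM, 1 was called higher and 6 lower, or 0.196%, with a median standard error of 0.31. Of the 61 contigs with a fold change of at least 2, in either direction and called or not, 39 were not called, and these had a median level of 0.63 CPM. Whether counting error or the spread between replicates sets the wider errors of scarce contigs was not tested.

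**Figure D2:**
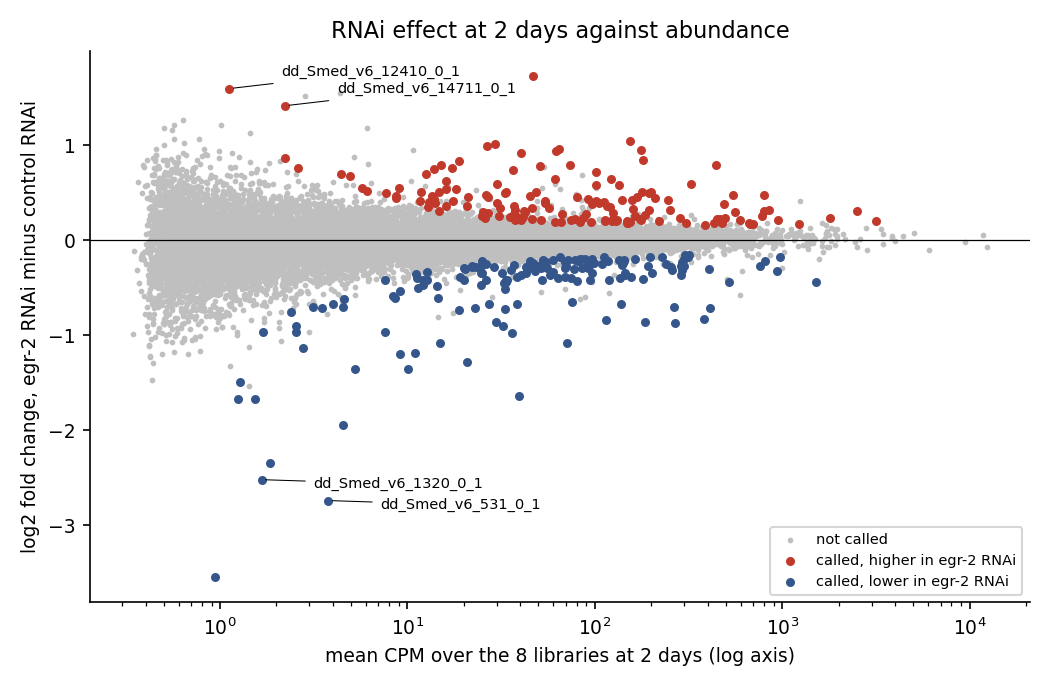
Log2 fold change of egr-2 RNAi over control RNAi at 2 days against the mean level over the 8 libraries (log axis), with 1 point per contig tested. Called contigs are coloured by direction and the 4 named contigs are labelled, and 275 of the 312 called contigs average at least 10 CPM.

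The contigs were named by a rule. A named contig was called, averaged at least 1 CPM over the 8 libraries and had no overlap between the conditions at 2 days, which 123 contigs that rose and 132 that fell met. The pair with the largest fold change in each direction was taken. Levels are normalised CPM on a scale common to all 24 libraries.

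The deepest fall under this rule was that of dd_Smed_v6_531_0_1, a contig of 545 bases. At 2 days its level was 1.07, 0.842, 0.836 and 1.16 CPM in egr-2 RNAi replicates 1 to 4, against 7.57, 2.65, 13.7 and 2.50 CPM in control replicates 1 to 4. The egr-2 RNAi libraries were uniformly low, while the control libraries ranged from 2.50 to 13.7 CPM. The log2 fold change was -2.74 (SE 0.49, adjusted p of 0.0071 by the edgeR quasi-likelihood test), lower in 4 of 4 libraries. At 0 h the same contig was far more abundant, at 87.7 ± 51.6 CPM in egr-2 RNAi and 124 ± 56.1 CPM in control fragments (SD, n = 4 each), with overlapping levels and an adjusted p of 0.57 in edgeR. At 4 days it had 7.64 ± 3.17 CPM in egr-2 RNAi and 18.1 ± 7.62 CPM in control fragments (SD, n = 4 each), a log2 fold change of -1.24 (SE 0.30, edgeR adjusted p of 0.022). Its mean level in both conditions was lowest at 2 days among the 3 times.

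The contig dd_Smed_v6_1320_0_1, of 680 bases, had a similar course. Its level at 2 days was 0.879, 0.281, 0.313 and 0.535 CPM in egr-2 RNAi replicates 1 to 4, from 6 to 14 reads, against 3.04, 1.48, 5.43 and 1.35 CPM in control replicates 1 to 4, from 33 to 124 reads. Each egr-2 RNAi value was below each control value, and control replicate 3 was again the highest. The log2 fold change was -2.52 (SE 0.46, edgeR adjusted p of 0.0086). At 0 h it had 50.5 ± 29.6 CPM in egr-2 RNAi and 74.3 ± 27.1 CPM in control fragments (SD, n = 4 each, edgeR adjusted p of 0.49). At 4 days it had 5.76 ± 2.78 and 13.2 ± 5.29 CPM in egr-2 RNAi and control fragments (SD, n = 4 each), a log2 fold change of -1.19 (SE 0.32, edgeR adjusted p of 0.040). Both contigs ranked the 4 libraries in the same order in 5 of the 6 groups, the egr-2 RNAi group at 2 days being the other one. The difference between the effects at 2 days and at 0 h did not pass the test for either falling contig, with edgeR adjusted p of 0.64 for dd_Smed_v6_531_0_1 and 0.71 for dd_Smed_v6_1320_0_1. Nor did that between 4 days and 2 days, with edgeR adjusted p of 0.52 for dd_Smed_v6_531_0_1 and 0.60 for dd_Smed_v6_1320_0_1.

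Under the same rule the largest rises were those of 2 scarce and short contigs. The largest rise without the rule, a log2 fold change of 1.73 in a contig of 1259 bases averaging 46.9 CPM, had overlapping levels and is not named. For dd_Smed_v6_12410_0_1, of 282 bases, the level at 2 days was 1.76, 1.45, 1.04 and 2.45 CPM in egr-2 RNAi replicates 1 to 4, against 0.693, 0.765, 0.482 and 0.317 CPM in control replicates 1 to 4. These are 20 to 55 reads in egr-2 RNAi and 8 to 17 reads in control libraries. The log2 fold change was 1.59 (SE 0.33, edgeR adjusted p of 0.017), and the conditions did not overlap. At 0 h the levels were 2.67 ± 0.57 CPM in egr-2 RNAi and 0.991 ± 0.58 CPM in control fragments (SD, n = 4 each), also without overlap but not called (log2 fold change of 1.34, SE 0.35, edgeR adjusted p of 0.10). At 4 days the conditions overlapped, at 0.939 ± 0.23 CPM in egr-2 RNAi and 1.10 ± 0.84 CPM in control fragments (SD, n = 4 each, edgeR adjusted p of 0.88).

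For dd_Smed_v6_14711_0_1, of 458 bases, the level at 2 days was 3.27, 2.20, 1.98 and 5.39 CPM in egr-2 RNAi replicates 1 to 4, against 1.6, 1.21, 1.18 and 0.911 CPM in control replicates 1 to 4. The log2 fold change was 1.41 (SE 0.30, edgeR adjusted p of 0.020), with replicate 4 the highest egr-2 RNAi library, as for the other contig that rose. At 0 h it had 5.78 ± 1.18 CPM in egr-2 RNAi and 2.38 ± 1.16 CPM in control fragments (SD, n = 4 each), without overlap and not called (edgeR adjusted p of 0.075). At 4 days it had 2.51 ± 0.65 CPM in egr-2 RNAi and 2.29 ± 1.15 CPM in control fragments (SD, n = 4 each, edgeR adjusted p of 0.89). The difference between the effects at 4 days and at 2 days did not pass the test for either rising contig, with edgeR adjusted p of 0.22 for dd_Smed_v6_12410_0_1 and 0.27 for dd_Smed_v6_14711_0_1.

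**Figure D3:**
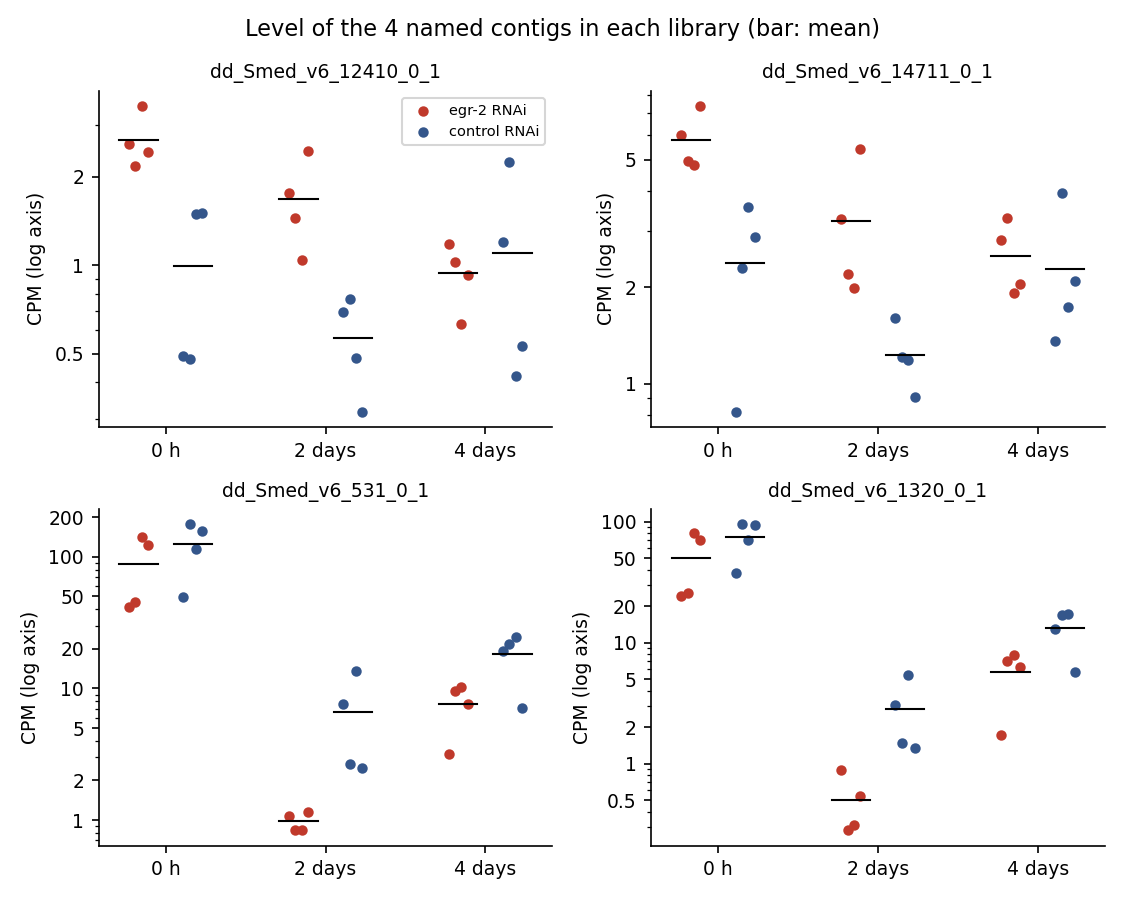
Level of the 4 named contigs in each library (CPM, log axis) at 0 h, 2 days and 4 days, with egr-2 RNAi left of control RNAi (points: libraries, bars: means of 4). At 2 days the conditions do not overlap in any panel, and the 2 contigs that fell (lower row) have their lowest mean levels at that time.

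The calls on the 4 named contigs depended on which libraries entered. With all 24 libraries in the fit 0 of the 4 were called, with edgeR adjusted p of 0.19 for dd_Smed_v6_531_0_1, 0.35 for dd_Smed_v6_1320_0_1, 0.14 for dd_Smed_v6_12410_0_1 and 0.082 for dd_Smed_v6_14711_0_1. The log2 fold changes in that fit were -2.73 for dd_Smed_v6_531_0_1, -2.52 for dd_Smed_v6_1320_0_1, 1.6 for dd_Smed_v6_12410_0_1 and 1.42 for dd_Smed_v6_14711_0_1, while the standard errors were larger, at 0.84, 0.95, 0.45 and 0.36 in the same order. That was the only alternative of 17 that ended the calls on the contigs that fell. The call on dd_Smed_v6_12410_0_1 also ended without egr-2 RNAi replicate 1 (0.062) or 4 (0.076) and without control replicate 3 (0.053) or 4 (0.072). That on dd_Smed_v6_14711_0_1 also ended without egr-2 RNAi replicate 1 (0.069) or 4 (0.072) and without control replicate 2 (0.056) or 4 (0.082).

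Most of the contigs that fell at least 2-fold also fell steeply during regeneration of control fragments. Contigs were grouped by their change from 0 h to 4 days in control fragments, a comparison that uses none of the 8 libraries described here. In it, 274 contigs fell at least 4-fold at an adjusted p below 0.05, or 1.48% of 18489 tested, and 234 rose at least 4-fold, or 1.27% (edgeR quasi-likelihood test). Of the first kind, 195 were tested at 2 days, or 1.09% of the contigs tested there. They held 33 of the 160 contigs that fell under egr-2 RNAi, or 20.6%, and 19 of the 152 that rose, or 12.5%. They also held 12 of the 17 contigs that fell at least 2-fold. Contigs that rose at least 4-fold in control regeneration, 0.997% of those tested at 2 days, held 6 of the contigs that fell and 5 of those that rose.

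The 12 contigs that fell at least 4-fold in control regeneration and at least 2-fold under egr-2 RNAi averaged 44.2 to 1890 CPM in control fragments at 0 h. At 2 days they averaged 0.502 to 46.0 CPM in egr-2 RNAi and 1.89 to 96.7 CPM in control fragments, with log2 fold changes of -2.74 to -1.08. The conditions did not overlap for 7 of the 12, which were chosen by their fold change in these same libraries (3.39% of all contigs tested). Both named contigs that fell were among them by their control course, with log2 changes from 0 h to 4 days of -2.81 (SE 0.33) for dd_Smed_v6_531_0_1 and -2.53 (SE 0.27) for dd_Smed_v6_1320_0_1.

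The 17 contigs that fell at least 2-fold had a median level at 0 h of 68.6 CPM in egr-2 RNAi and 111 CPM in control fragments. At 2 days the median was 1.87 CPM in egr-2 RNAi and 7.15 CPM in control fragments, and at 4 days it was 3.29 CPM in egr-2 RNAi and 4.94 CPM in control fragments. In 12 of the 17 the conditions did not overlap at 2 days, against 3.39% of all contigs tested, and here too the choice used these libraries. All 17 were lower in egr-2 RNAi at 0 h, with a median log2 fold change of -0.53 and 2 called. The 16 tested at 4 days were lower there, with a median of -1.18 and 10 called. Over all contigs tested, 1.08% were called at 0 h and 4.14% at 4 days, in either direction. The 0 h calls were 168 higher and 21 lower, and those at 4 days 503 higher and 294 lower. Of the contigs also tested at 2 days, 50.8% were higher in egr-2 RNAi at 0 h and 48.5% at 4 days.

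Most contigs of this group were lower in egr-2 RNAi fragments, called or not. Of the 195, 134 had a negative log2 fold change at 2 days, with a median of -0.26 and quartiles of -0.64 and 0.098, against a median of 0.0026 over all contigs tested. Their median log2 deviation from the control mean was -0.27, -0.31, -0.094 and -0.30 in egr-2 RNAi replicates 1 to 4, against -0.00079, 0.077, 0.17 and -0.16 in control replicates 1 to 4. In 3 egr-2 RNAi libraries the value was below that of every control library, while egr-2 RNAi replicate 3 lay above control replicate 4. Their summed level did not separate the conditions, at 7730 to 9105 CPM in egr-2 RNAi and 7634 to 10692 CPM in control libraries. The spread between replicates was wide in this group, with a median standard error of 0.20 on the log2 scale, against 0.091 over all contigs tested.

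The few contigs that rose at least 2-fold had no common course. The 5 averaged 1.68 to 207 CPM in egr-2 RNAi and 0.564 to 101 CPM in control fragments at 2 days. By their control course, 2 fell at least 4-fold, 1 rose at least 4-fold and 2 were not called.

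The progress of regeneration as a whole was then compared. Each library was placed on the axis from the mean of control fragments at 0 h, set to 0, to the mean of control fragments at 4 days, set to 1, over all contigs tested at 2 days. The position was 0.832, 0.870, 0.831 and 0.853 in egr-2 RNAi replicates 1 to 4, against 0.819, 0.831, 0.795 and 0.838 in control replicates 1 to 4. Means were 0.847 ± 0.018 in egr-2 RNAi and 0.821 ± 0.019 in control libraries (SD, n = 4 each), a difference of 0.026 with an exact two-sided permutation p of 0.114. The conditions overlapped, so neither a delay nor an advance of egr-2 RNAi fragments along this axis was detectable at 2 days.

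Contigs called at 2 days mostly kept their direction at the other times, in libraries that are not shared. Of the contigs that rose, 144 of the 151 tested at 0 h were higher there and 122 of 152 were higher at 4 days, with median log2 fold changes of 0.30 and 0.20. Of those that fell, 145 of the 158 tested at 0 h were lower there and 145 of 158 were lower at 4 days, with medians of -0.28 and -0.28. Over all contigs tested at both times, 50.8% were higher in egr-2 RNAi at 0 h and 48.5% at 4 days. This is a count over contigs, which are not independent replicates.

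Many of these effects passed the test at the other times as well. At 0 h 189 contigs were called, or 1.08%, and 168 of them were higher and 21 lower. Of the 312, 51 were among them in the same direction, 46 higher and 5 lower, with 0 in the opposite one. They are 16.3% of the 2 day calls and 27.0% of the 0 h calls. At 4 days 797 contigs were called, or 4.14%, and 503 of them were higher and 294 lower. Of the 312, 148 were among them, 147 in the same direction, with 60 higher and 87 lower. These 147 are 47.1% of the 2 day calls and 18.4% of the 4 day calls. Without replicate 1 of egr-2 RNAi at 0 h, 447 contigs were called at 0 h, and 84 of the 2 day calls were shared with them. With all 24 libraries in each fit, 72 contigs were called at 2 days, and 33 were shared with 0 h and 17 with 4 days. Which of the other times shared more calls with 2 days thus depended on the fit. At all 3 times 23 contigs were called in 1 direction, 21 higher and 2 lower. At 2 days and at neither other time 136 were called, 67 higher and 69 lower. A missing call at another time is not a test of a difference between times. Of the 312, 2 had an effect that differed from that at 0 h by the interaction test described below. For 4 days the number was 9.

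**Figure D4:**
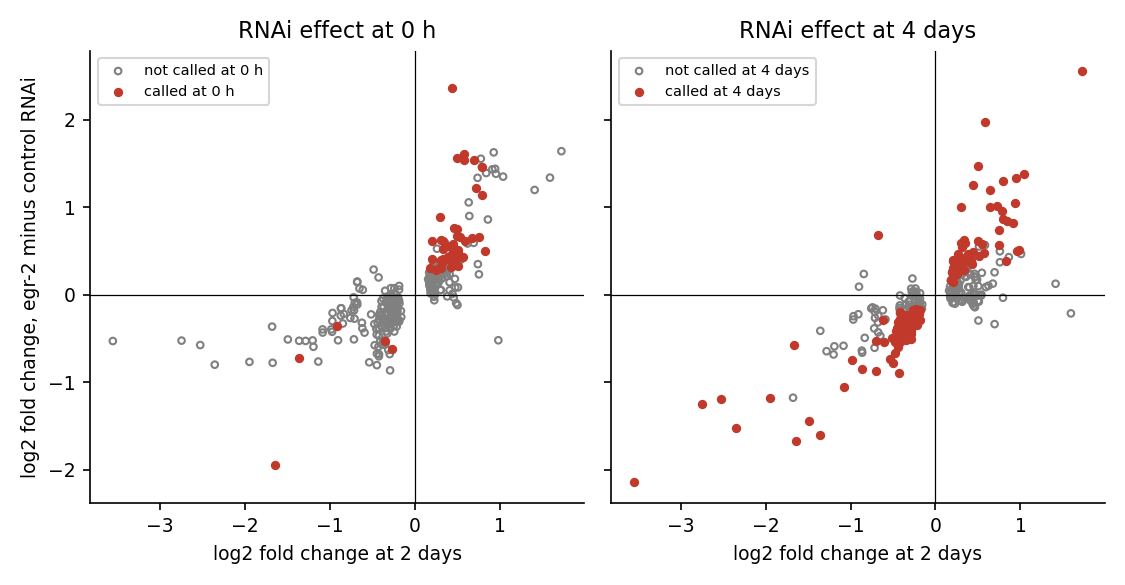
Log2 fold change of egr-2 RNAi over control RNAi at 0 h (left) and at 4 days (right) against that at 2 days, for the contigs called at 2 days. Filled points were called at the other time, and points at the lower left and upper right kept their direction, as 144 of 151 contigs that rose did at 0 h.

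The 59 contigs that rose at both 0 h and 4 days were chosen without the 2 day libraries, and 50 of them were higher in egr-2 RNAi at 2 days, 21 of them called. Over all contigs tested at 2 days, 50.9% were higher and 0.851% were called higher. Their median log2 fold change was 0.26 at 2 days, against 0.48 at 0 h and 0.45 at 4 days. Their mean log2 deviation from the control mean was 0.28, 0.28, 0.17 and 0.31 in egr-2 RNAi replicates 1 to 4, against -0.065, 0.048, -0.010 and 0.027 in control replicates 1 to 4. The conditions did not overlap, and egr-2 RNAi replicate 3 was the nearest to the controls. Only 4 contigs fell at both 0 h and 4 days, of 21 called lower at 0 h against 168 called higher. All 4 were lower at 2 days, 2 of them called. Their mean log2 deviation was -0.55, -0.54, -0.64 and -0.51 in egr-2 RNAi replicates 1 to 4, against 0.046, 0.0074, -0.10 and 0.052 in control replicates 1 to 4, and here replicate 3 was the egr-2 RNAi library farthest from the controls.

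Where the effect at 2 days differed from that at 0 h was tested as an interaction over the 16 libraries of both times. This called 12 of 18661 contigs, or 0.0643%, and 1367 had an unadjusted p below 0.05 (edgeR quasi-likelihood test). In 10 of the 12 the effect at 2 days was the more negative, and in 10 it was smaller in size than at 0 h. Of the 12, 2 were also called at 2 days. The number was 6 and 3 without egr-2 RNAi replicates 1 and 2 of 2 days, and 3, 5 and 3 without control replicates 2, 3 and 4 of 2 days. It was 38 and 4 without egr-2 RNAi replicates 1 and 4 of 0 h, and 6 without control replicate 1 of 0 h.

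Between 2 days and 4 days the effect differed for 49 of 19436 contigs, or 0.252%, and 1922 had an unadjusted p below 0.05 (edgeR quasi-likelihood test). In 34 of the 49 the effect at 4 days was the more positive, and in 39 of the 48 that were tested at 2 days the effect was smaller in size at 2 days. Of the 49, 9 were also called at 2 days. Without egr-2 RNAi replicates 1, 2 and 3 of 2 days the number was 25, 23 and 117, and without control replicates 1, 3 and 4 of 2 days it was 88, 29 and 25. Without egr-2 RNAi replicates 2, 3 and 4 of 4 days it was 24, 31 and 26, and without control replicate 3 of 4 days it was 113.

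The direction of the calls was related to contig length. The contigs that rose had a median length of 748 bases and those that fell one of 1822 bases, against 1274 bases over all contigs tested. With 5 length classes of about equal number, in the longest class, from 2197 to 19524 bases, 12 contigs rose and 73 fell. In the shortest class, from 202 to 713 bases, 70 rose and 30 fell. Called contigs were 2.38% of the longest class and 2.8% of the shortest, against 1.75% over all contigs tested. Called or not, 65.3% of the longest class were lower at 2 days and 58.0% of the shortest were higher. Over all contigs tested at 2 days, 50.9% were higher. The 73 long contigs that fell were abundant, with a median of 92.3 CPM, and changed little, by a median log2 fold change of -0.28. For 67 of them the conditions did not overlap, against 3.39% of all contigs tested, but the 73 were chosen as called in these same libraries.

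The libraries themselves carried a trend with contig length. The difference between the median log2 deviations of the longest and the shortest class was -0.072, -0.049, 0.012 and -0.072 in egr-2 RNAi replicates 1 to 4, against 0.022, 0.0098, 0.014 and 0.069 in control replicates 1 to 4. In 3 egr-2 RNAi libraries the value was below that of every control library, and replicate 3 was within their range. Means were -0.045 ± 0.040 in egr-2 RNAi and 0.029 ± 0.027 in control libraries (SD, n = 4 each, exact two-sided permutation p of 0.0571). After a smooth trend on length had been removed from each library, 229 contigs were called, 217 of them among the 312. How far the trend enters the calls was not tested beyond this fit, and in it 31 contigs of the longest class fell and 17 rose, while 46 of the shortest class rose and 34 fell.

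**Figure D5:**
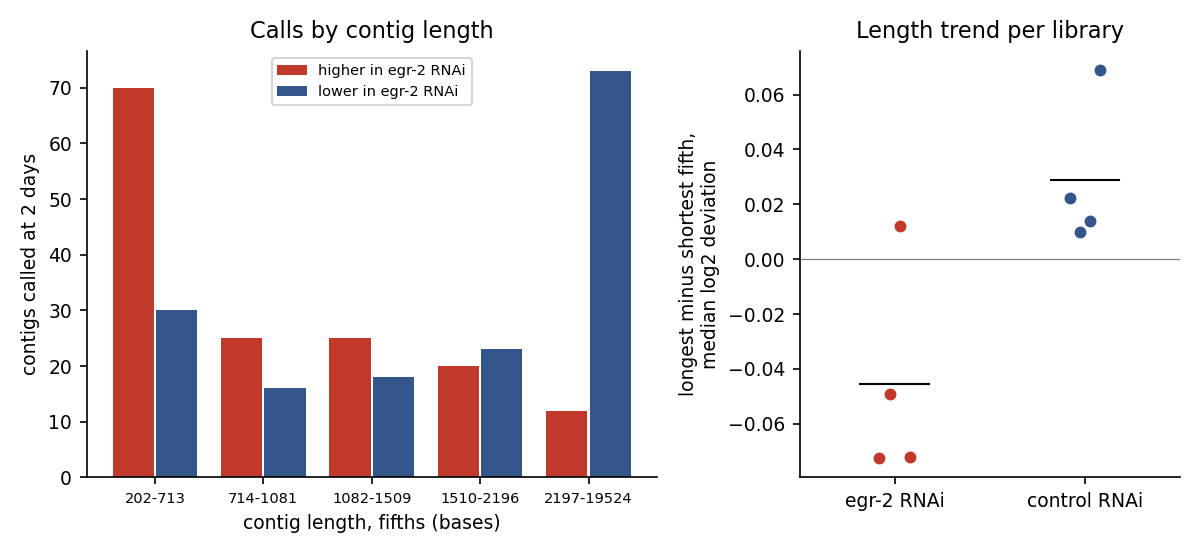
Left, number of contigs called higher and lower in egr-2 RNAi at 2 days in 5 classes of contig length. Right, difference between the median log2 deviations of the longest and the shortest class in each library (points, bars: means of 4), negative in 3 of 4 egr-2 RNAi libraries and positive in 4 of 4 control libraries.

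The long contigs that fell were followed to the other times. At 0 h 70 of the 73 were lower in egr-2 RNAi, with a median log2 fold change of -0.25, but 1 was called, and 74.7% of all contigs in the longest class were lower there. At 4 days 68 of the 73 were lower, with a median of -0.22, and 46 were called, while 53.7% of the longest class were lower. Of the 70 short contigs that rose, 67 were higher at 0 h and 57 at 4 days, with 25 and 29 called, while 59.8% and 47.2% of the shortest class were higher. Over contigs of all lengths, 1.08% were called at 0 h and 4.14% at 4 days, in either direction. The 0 h calls were 168 higher and 21 lower, and those at 4 days 503 higher and 294 lower. The classes also differed in error, with a median standard error at 2 days of 0.056 in the longest and 0.20 in the shortest.

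Contigs counted in 1 condition alone were scarce ones. There were 624 contigs with 0 counts in all 4 egr-2 RNAi libraries and a count in a control library, of which 21 had a count in 4 of 4 control libraries, and the largest control total was 16 reads over 4 libraries. Conversely, 439 contigs had 0 counts in all 4 control libraries and a count in an egr-2 RNAi library, with 7 counted in 4 of 4 and a largest total of 13 reads. With so few reads these contigs were not tested. Mean total counts were 18791200 in egr-2 RNAi and 21047500 in control libraries, and the part of depth in the 2 numbers of contigs was not tested.

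In the authors' deposited table, 192 of 16812 contigs had a false discovery rate below 0.05 at 2 days, or 1.14%, with 92 higher and 100 lower under egr-2 RNAi. Of these, 151 were among the 312 calls of the 8 libraries, or 78.6% of the calls in the authors' deposited table and 48.4% of the 312, with 0 opposite directions. For the shared contigs, log2 fold changes in the authors' deposited table differed from those of the 8 libraries by at most 0.028.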

How the data were processed

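RNA had been sequenced from 24 pools of planarian tail fragment tissue. Per the submitters' processing notes, FastQC 0.11.5, Bowtie2 2.3.1 and featureCounts of Subread 1.6.3 were used; settings and strand use were not found in those notes, and reads of antisense contigs may not be separated. The authors deposited raw read counts per contig in 1 column per library, and the number of unmatched columns was 0. The authors also deposited log2 fold changes and false discovery rates (adjusted p-values) per comparison, and average log2 CPM.

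From the counts, edgeR 4.0.16 (limma 3.58.1, R 4.3.3) was run on the 8 libraries of 2 days alone, with filterByExpr (minimum count 10, minimum total 15), TMM factors, a group-means model and Benjamini-Hochberg adjustment at 0.05. The contigs tested held 99.85% to 99.87% of each library's counts. Fits at 0 h and 4 days were alike, and interactions used 16 libraries. Standard errors come from the F statistic. CPM uses TMM factors of all 24 libraries, and log2 CPM a prior count of 2. The scripts were tested on simulated data. Of the contigs tested, 303 share a component with another contig, and their reads may be divided; 7 of these were called. Contigs were named as the pair with the largest change in each direction among those called, with at least 1 CPM and no overlap. The groups compared, the rule and the lists were chosen with earlier results of these data known, and the grouping by contig length after its values were seen. Alternatives were RLE factors, scaling by total counts, other filters, DESeq2 1.42.0, a likelihood ratio test, all 24 libraries, a replicate block and leaving out each library; removal of a length trend (lowess span 0.3) was added after seeing the data.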

Additional observations from a re-analysis of the deposited data

Results flagged for a closer look

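The effect of egr-2 RNAi differed between 0 h and 2 days for 12 contigs, and between 2 days and 4 days for 49, by an interaction test in edgeR with Benjamini-Hochberg adjustment. The effect was the more negative at 2 days in 10 of the 12 and in 34 of the 49.

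The 4 named contigs in 6 groups and 7 library-level values at 2 days make 38 sets of 4 libraries. In 0 of these sets did the highest or lowest library stand apart by Dixon's criterion, which by chance marks about 1 set in 20.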

How the results depend on the processing

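The 312 calls at 2 days became 495 with a likelihood ratio test, 72 with all 24 libraries in the fit and 117 to 615 with each library left out. RLE factors, scaling by total counts, both other filters on low counts, DESeq2 and removal of the length trend gave 229 to 463. The cause of these changes was not tested. With the replicate block 528 contigs were called. Libraries with the same number had correlations of deviations of 0.12, -0.062, 0.43 and -0.076 for replicates 1 to 4. Replicates 1 and 3 but not 2 and 4 of egr-2 RNAi matched their own number best. The labels give no more than a number in common, and whether libraries of the same number were handled together was not tested. The interaction of 2 days against 0 h was called for 57 contigs by DESeq2, 36 with all 24 libraries, 16 with the block and 3 to 38 with each library left out. That of 4 days against 2 days was called for 161, 18, 225 and 23 to 117 contigs in the same fits. Calls shared with 0 h numbered 33 with all 24 libraries and 84 without replicate 1 of egr-2 RNAi at 0 h, and those shared with 4 days 17 with all 24 libraries. The difference in position on the regeneration axis was 0.013 to 0.032 over its alternatives, with exact permutation p of 0.17 and 0.51 where all 8 libraries entered. None of the 4 named contigs reversed in 17 alternatives each. Scarce contigs had the widest errors, with a median standard error of 0.35 below 1 CPM, where 1 of 2208 contigs was called, against 0.059 at 10 CPM or more; the part of depth in this was not tested.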
